A study of Mus musculus with 36 samples.

Results

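The genes described here are the 10 genes Bcat1, Bcat2, Bckdha, Bckdhb, Dbt, Ivd, Mccc1, Mccc2, Hibch and Acadsb, which encode enzymes that break down the branched-chain amino acids leucine, isoleucine and valine. They were taken by symbol from the 55536 genes counted in every library, and all 10 were among the 16723 genes kept by the filter on low counts. The cells were mouse brown pre-adipocytes of 2 clones, 48 and 66, in which Rxra, the gene of retinoid X receptor α (RXRα), had been disrupted with CRISPR/Cas9 (Rxra-/-). Each clone was given back RXRα by retrovirus (pBabe Hygro), either wild-type (RxraWT) or with alanine in place of serine at residue 22 (RxraSA), so all libraries come from cells that lack intact endogenous Rxra and carry a viral copy. RNA was taken at day 0 (confluent cells), day 2 and day 6 of differentiation, with 3 libraries for each clone, genotype and day, 36 in all. Differentiation medium held insulin and triiodothyronine throughout, and dexamethasone, isobutylmethylxanthine and indomethacin were present for the first days only, up to day 2. Clone 48 was sequenced in library pool 1 and clone 66 in pool 2, so clone and pool cannot be told apart. The sources differ on the 3 replicates, which GEO's design text calls technical and the study's methods call independent, so the p-values measure only the spread between these samples, which may be technical.

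Branched-chain amino acids are broken down mostly in mitochondria. An aminotransferase, BCAT1 in the cytosol or BCAT2 in mitochondria, first takes off the amino group, and the branched-chain ketoacid dehydrogenase complex (BCKDH) then commits the carbon skeleton to oxidation. Separate chains of enzymes carry the leucine, isoleucine and valine products on to acetyl-CoA, acetoacetate or propionyl-CoA, and adipocytes, brown adipocytes above all, are known to use these products for energy and lipid synthesis.

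Each library held 11351078 to 24349263 counts assigned to genes, with a median of 18338726, and each of the 10 genes had at least 15 counts in every library. The adipocyte genes Adipoq, Fabp4, Plin1 and Pparg all rose, Adipoq from a mean of 1.81 to 2314 CPM (counts scaled to a fixed library size) between days 0 and 6. The defining brown fat genes stayed near 0 at every day, with at most 0.307 CPM of Ucp1, 1.66 CPM of Cidea and 1.19 CPM of Prdm16. Of the 8 brown adipocyte markers 6 passed the filter on low counts and all 6 rose to day 6, and of the 5 pre-adipocyte markers 3 passed and all 3 fell. The summed CPM of the 8 at day 6 was 6346 to 8942 in clone 48 and 4993 to 6486 in clone 66, and that of the 5 at day 0 was 194.2 to 247.1 in clone 48 and 58.4 to 94.4 in clone 66. Of the 4 macrophage markers Ptprc and Adgre1 had at most 1 count in any library and Csf1r at most 1.02 CPM, and their summed CPM, 2.77 to 11.5, was nearly all Cd68 (2.43 to 11.3). Cd68, the 1 of them tested, fell by 0.87 to day 2 (adjusted p = 2.94e-09), was 0.27 higher at day 6 than at day 0 (adjusted p = 0.0174), and was lower in clone 66 at each day (-0.69, -0.52 and -0.54, adjusted p = 0.000407, 0.008 and 0.00384); its part in the results was not tested. Rxra itself, whose counts do not separate the viral copy from the disrupted gene or the 2 genotypes from each other, was read at 92.6 to 233.3 CPM at day 0, 399.5 to 712.1 at day 2 and 182.1 to 347.0 at day 6.

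Between day 0 and day 6, 9 of the 10 genes rose and Bcat1 fell, by edgeR's quasi-likelihood test at an adjusted p under 0.05. The median log2 fold change of the 10 was 2.24, against -0.03 over all genes tested, of which 32.9% rose and 35.4% fell, 68.3% in all. At day 2, 7 genes had risen, Bcat1 had fallen, and Ivd and Acadsb did not pass the test, with a median of 0.94 against -0.02 over all genes. The background was 73.3% of all genes, 35.8% higher and 37.5% lower. Between days 2 and 6, 7 genes rose and Bcat1 fell (median 0.73, against 0.01 over all genes), while Bcat2 and Bckdhb did not pass, beside 62.0% of all genes, 31.9% higher and 30.1% lower. Scaled by library size alone, without trimmed-mean (TMM) factors, 25.1% of all genes were higher and 49.4% lower at day 2, and 24.8% and 46.4% at day 6; 6 and 9 of the 10 genes then rose and Bcat1 fell in both. These are bulk libraries, in which fewer cells of a type and less RNA per cell cannot be told apart.

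The ranges of the 12 libraries of each day separated the days for most of these genes. Between days 0 and 6 no library overlapped for Bcat2, Bckdha, Bckdhb, Dbt, Ivd, Mccc2, Hibch and Acadsb, all higher, or for Bcat1, lower, beside 23.2% of all genes with separate ranges. Between days 0 and 2 it was 5 genes, Bcat2, Bckdhb, Dbt, Mccc2 and Hibch, beside 27.7% of all genes. Between days 2 and 6 it was Bckdha, Dbt and Ivd, higher, and Bcat1, lower, beside 17.1%. The plot of levels by day holds several shapes, among them genes that rose by day 2 with no further rise called and genes that rose mainly afterwards.

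**Figure D1:**
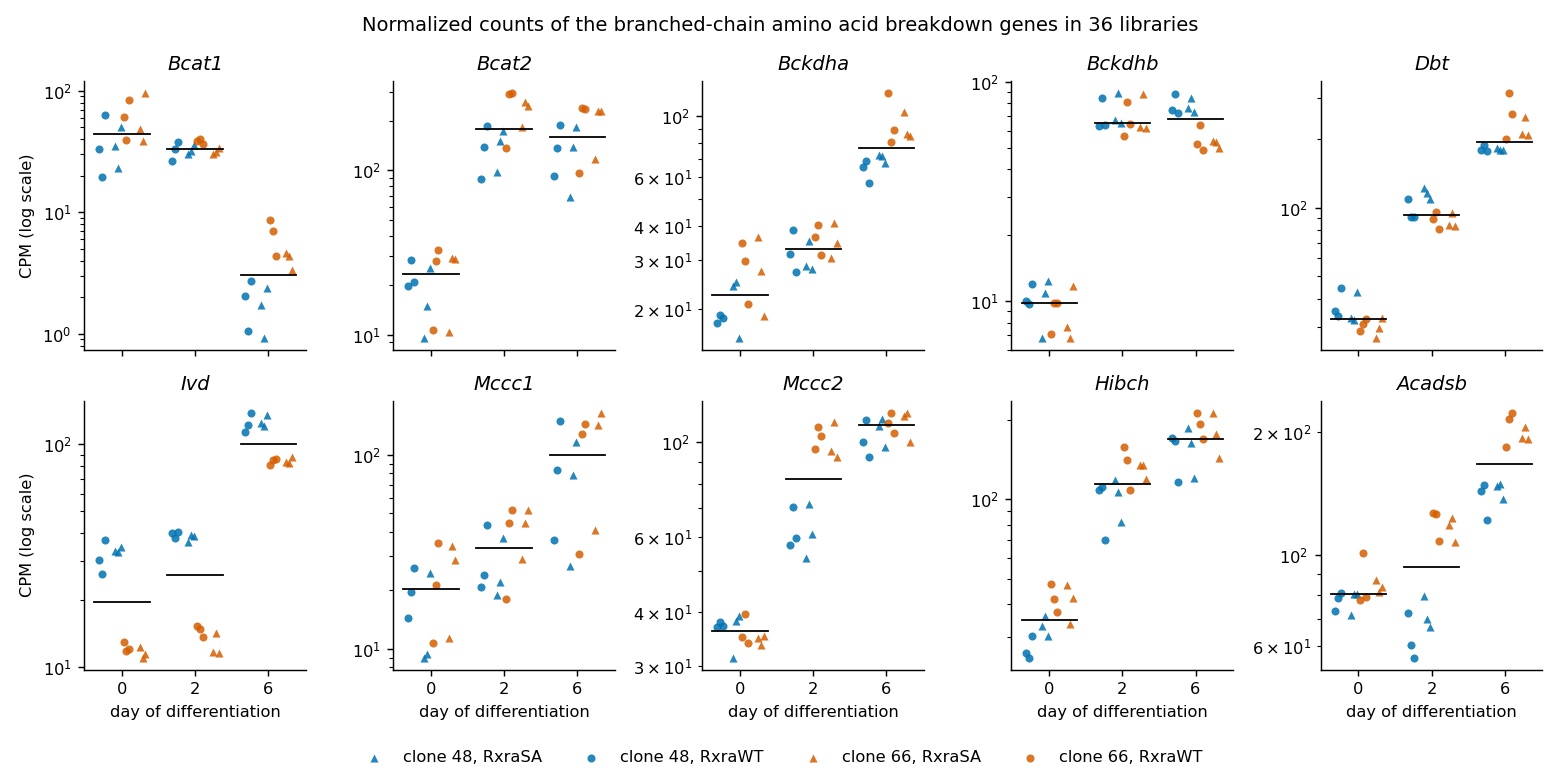
Level of each of the 10 genes in the 36 libraries (CPM, log axis) at days 0, 2 and 6; each point is 1 library, with the clones and genotypes marked as in the key. Bcat1 ends at 0.922 to 8.63 CPM after 19.6 to 95.5 at day 0, while Bcat2 and Bckdhb are already high at day 2 and Ivd is not.

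**Figure D2:**
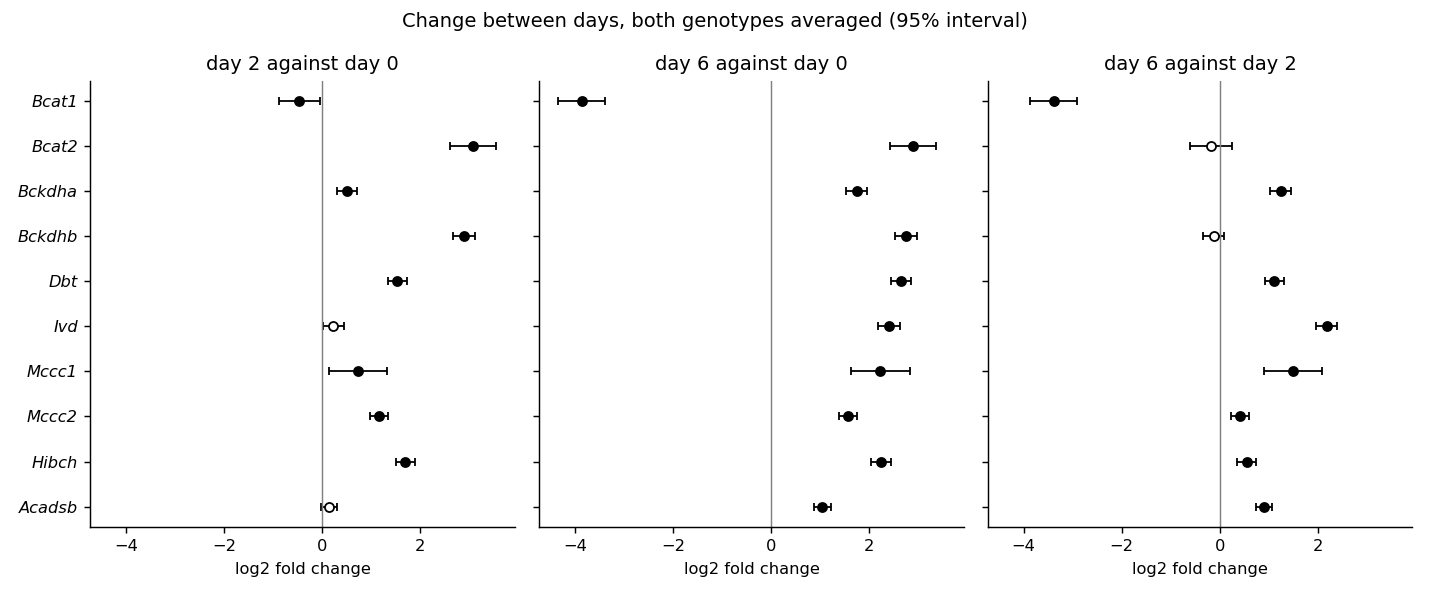
Log2 fold change of each gene between days, with its 95% confidence interval from edgeR, for the 3 pairs of days. The 9 genes that rose from day 0 to day 6 span 1.05 (Acadsb) to 2.90 (Bcat2), and Bcat1 lies at -3.86.

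The aminotransferases moved in opposite directions. Bcat1, the cytosolic enzyme (chromosome 6, 144993835 to 145076184, minus strand, GRCm38), was read at 19.6, 44.2 and 95.5 CPM as lowest, median and highest of the 12 libraries at day 0. It was at 26.5, 33.2 and 40.4 CPM at day 2 and at 0.922, 3.03 and 8.63 CPM at day 6, where the counts were 15 to 153. Every day 6 library was below every library of days 0 and 2, and the day 2 range lay inside that of day 0. From day 0 to day 6 Bcat1 was 14.5-fold lower (log2 fold change -3.86, SE 0.235, adjusted p = 1.91e-16), and nearly all of the fall came after day 2 (-3.39, SE 0.234, adjusted p = 1.16e-14, 10.5-fold). The fall by day 2 was small (-0.47, SE 0.204, adjusted p = 0.0369). It passed in clone 66 alone (-0.78, adjusted p = 0.00435) but not in clone 48 alone (-0.22, adjusted p = 0.501), and it did not pass in 17 of the 36 fits that each left out 1 library (adjusted p 0.0527 to 0.108).

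Bcat2, the mitochondrial enzyme (chromosome 7, 45570153 to 45589711, plus strand), went from 9.56, 23.3 and 32.7 CPM at day 0 to 88.3, 177.9 and 294.5 at day 2, and was at 69.4, 160.7 and 240.9 at day 6. All libraries of days 2 and 6 were above all of day 0. It rose 8.42-fold by day 2 (3.07, SE 0.231, adjusted p = 4.51e-14) and differed between days 2 and 6 by -0.17 (SE 0.212, adjusted p = 0.493). Per length, as TPM (counts over exon length, scaled to a fixed sum), the ratio of Bcat2 to Bcat1 had a median of 1.08 at day 0 (0.420 to 3.49), 11.6 at day 2 (7.68 to 19.8) and 127.3 at day 6 (26.9 to 359.2). Bcat1 thus made up a median 48.3% of the summed TPM of both genes on day 0, then 7.95% and 0.779% on days 2 and 6, and the 3 days did not overlap in any library. The ratio rose in both clones, to a day 6 median of 173.4 in clone 48 and 104.2 in clone 66. Its size depends on the annotated exon bases, 9322 for Bcat1 and 3900 for Bcat2, whether or not the cells used them. By CPM the day 0 median of Bcat1 (44.2) was above that of Bcat2 (23.3). In Bcat2, 15.9% of exon bases overlap an antisense transcript, 0610005C13Rik, whose reads were not separated by strand.

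**Figure D3:**
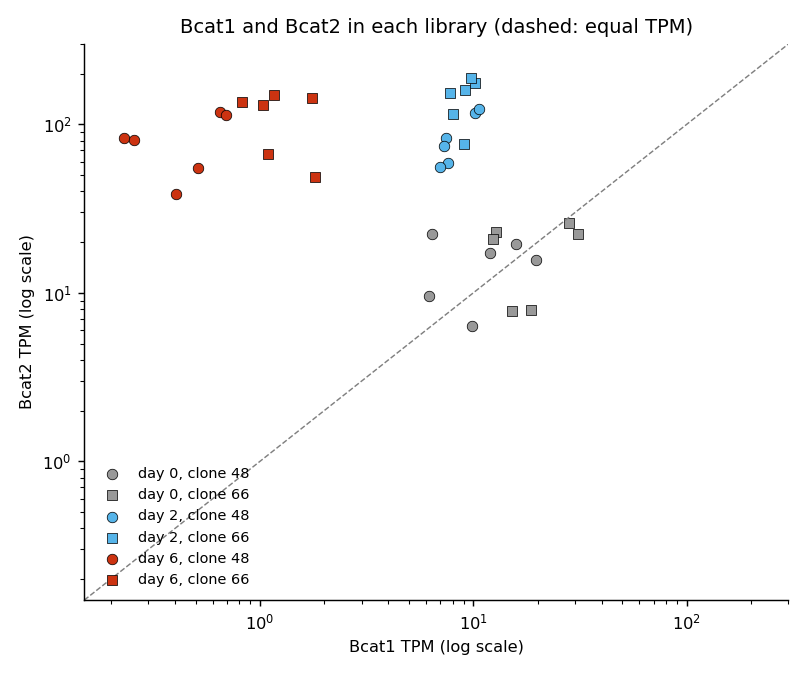
Bcat1 and Bcat2 per library on a scale per length (TPM, log axis), with days and clones marked as in the key. Genotypes are not marked. On this scale the 2 genes lie at similar levels at day 0 and are apart by a median ratio of 127.3 at day 6.

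The start regions of these genes were read from RefSeq (GRCm38.p6) as windows of 300 bases, 250 before an annotated start and 50 from it on. There were 12 windows for 9 of the 10 genes. Windows of Bcat1 and Bcat2 are shown because the genes moved in opposite directions, and 1 of Bckdhb because it rose most beside Bcat2 by day 2. That of Ivd is shown because its time course and its clone difference stand apart. A further window each of Bcat2 (chr7:45571029-45571328) and Bckdhb (chr9:83948531-83948830) is not shown. Capitals mark AGGTCA, the element that many nuclear receptors bind, often with RXR as partner, and CCAAT, each on either strand; the position of a match is that of its first base relative to the start.
Bcat1, chr6:145076108-145076407, minus strand: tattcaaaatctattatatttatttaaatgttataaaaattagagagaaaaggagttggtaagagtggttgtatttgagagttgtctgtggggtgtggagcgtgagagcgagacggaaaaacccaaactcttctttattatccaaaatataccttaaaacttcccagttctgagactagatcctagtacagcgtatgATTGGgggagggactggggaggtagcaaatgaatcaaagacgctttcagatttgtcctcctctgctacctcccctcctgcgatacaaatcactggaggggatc
Bcat1, chr6:145048763-145049062, minus strand: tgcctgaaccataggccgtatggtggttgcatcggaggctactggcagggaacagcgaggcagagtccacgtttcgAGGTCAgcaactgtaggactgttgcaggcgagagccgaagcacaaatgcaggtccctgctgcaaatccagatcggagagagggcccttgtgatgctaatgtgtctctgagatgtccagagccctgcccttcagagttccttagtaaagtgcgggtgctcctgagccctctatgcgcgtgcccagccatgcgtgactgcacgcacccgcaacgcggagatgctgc
Bcat2, chr7:45569903-45570202, plus strand: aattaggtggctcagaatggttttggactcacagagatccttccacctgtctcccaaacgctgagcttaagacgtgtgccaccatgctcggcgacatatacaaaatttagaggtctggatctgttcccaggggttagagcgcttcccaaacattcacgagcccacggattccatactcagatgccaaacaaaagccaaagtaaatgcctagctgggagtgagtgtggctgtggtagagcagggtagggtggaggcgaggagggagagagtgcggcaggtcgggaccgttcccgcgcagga
Bckdhb, chr9:83924887-83925186, plus strand: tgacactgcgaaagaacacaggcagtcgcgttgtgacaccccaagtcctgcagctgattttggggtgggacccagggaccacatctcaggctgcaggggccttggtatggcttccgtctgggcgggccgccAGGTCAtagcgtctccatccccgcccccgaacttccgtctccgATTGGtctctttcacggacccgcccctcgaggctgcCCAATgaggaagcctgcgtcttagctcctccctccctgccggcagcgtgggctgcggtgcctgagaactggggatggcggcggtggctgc
Ivd, chr2:118861744-118862043, plus strand: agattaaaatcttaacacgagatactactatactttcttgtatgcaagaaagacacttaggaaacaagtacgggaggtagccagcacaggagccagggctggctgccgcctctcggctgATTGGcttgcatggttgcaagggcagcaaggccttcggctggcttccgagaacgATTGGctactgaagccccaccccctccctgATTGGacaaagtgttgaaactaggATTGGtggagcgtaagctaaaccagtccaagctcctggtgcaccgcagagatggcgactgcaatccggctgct

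AGGTCA was found in 2 of the 12 windows, at -174 in the Bcat1 window at chr6:145048763-145049062 and at -119 in Bckdhb, and 16.3% of all 32851 windows of this length hold it. A pair of AGGTCA in direct repeat with 1 base between them was in 0, beside 0.0396% of all windows. CCAAT was in 6 windows of 5 genes, 4 times in Ivd, 3 times each in Mccc1 and Mccc2, and in Bckdhb and Bcat1, beside 37.4% of all windows. In Ivd the copies were all on the opposite strand, at -131, -77, -47 and -23. Of the other motifs searched on both strands, GGGCGG was in 4 windows (35.7% of all), CACGTG in 1 (7.15%), TGACG in 1 (20.8%), TATAAA in 1 (13.6%) and TTGCGCAA in 0 (0.183%). The Bcat2 window shown held none of these, and counts per gene do not say which start was used. Such matches are descriptions of letters, not of binding.

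The BCKDH genes rose in different steps. Bckdhb, the β subunit of the decarboxylase (chromosome 9, 83925145 to 84124240, plus strand), was at 6.81, 9.79 and 12.4 CPM at day 0, 56.5, 64.8 and 88.7 on day 2, then 49.1, 67.8 and 87.8 at day 6. It was 7.39-fold higher at day 2 than at day 0 (2.88, SE 0.112, adjusted p = 5.26e-22) and 6.79-fold at day 6, with no overlap with day 0. Its change from day 2 to day 6 was -0.12 (SE 0.103, adjusted p = 0.312), with 0.15 in clone 48 alone (adjusted p = 0.395) and -0.36 in clone 66 alone, which passed (adjusted p = 0.0489).

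Bckdha, the α subunit of the same enzyme (chromosome 7, 25629946 to 25658981, minus strand), moved later, from 15.7, 22.5 and 36.5 CPM at day 0 to 27.3, 33.0 and 41.0 on day 2, then 56.9, 76.6 and 120.9 at day 6. Days 0 and 2 overlapped, and day 6 lay above both. It rose by 0.51 by day 2 (SE 0.104, adjusted p = 5.29e-05) and by a further 1.25 by day 6, 3.36-fold in all (1.75, SE 0.105, adjusted p = 1.31e-16). In clone 66 alone the day 2 change was 0.38 (adjusted p = 0.0528). Of the Bckdha exon bases, 61.7% (1171 of 1899) overlap B3gnt8 on the opposite strand. Reads were counted without strand and those on both genes were not assigned, so the Bckdha level is read from the remaining bases and is uncertain.

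Dbt, the transacylase core of the complex (chromosome 3, 116513070 to 116549981, plus strand), rose in both steps, from 26.9, 32.7 and 44.4 CPM at day 0 to 80.7, 93.0 and 121.1 on day 2, then 177.1, 193.2 and 315.5 at day 6. No library of any day overlapped with another day. The changes were 2.89-fold by day 2 (1.53, SE 0.0975, adjusted p = 5.86e-16) and 6.26-fold by day 6 (2.65, SE 0.101, adjusted p = 3.47e-22). The proportions of the subunits changed with the day, as the ratio of Dbt to Bckdhb (TPM) went from a median of 1.87 at day 0 to 0.731 at day 2 and 1.69 at day 6, and that of Bckdha to Bckdhb from 2.10 to 0.452 and 1.06. For both ratios every day 2 library was below every library of days 0 and 6. TPM divides by all exon bases, so it understates Bckdha, whose shared bases gave no counts. Over the 728 Bckdha bases that no other gene overlaps, an approximate scale chosen after the data were seen, the median ratio of Bckdha to Bckdhb was 5.46 on day 0, then 1.18 and 2.75.

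In the leucine arm, Ivd, which encodes isovaleryl-CoA dehydrogenase (chromosome 2, 118861954 to 118882909, plus strand), rose late. It was at 11.04, 19.6 and 37.3 CPM at day 0, 11.6, 25.96 and 40.5 on day 2, then 81.2, 100.9 and 138.6 at day 6. Day 6 lay above all other libraries, and the wide ranges of days 0 and 2 split by clone. From day 2 to day 6 it rose 4.54-fold (2.18, SE 0.109, adjusted p = 2.12e-18). The change by day 2 was 0.23 (SE 0.106, adjusted p = 0.0537), -0.03 with library size alone, and passed in 21 of the 36 fits that left out 1 library (adjusted p 0.0133 to 0.05), in each clone alone (0.24 and 0.21, adjusted p = 0.029 and 0.0353) and with no filter on low counts (0.27, adjusted p = 0.0322).

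Mccc1 and Mccc2 encode the α (biotin-carrying) and β subunits of methylcrotonyl-CoA carboxylase, which acts after IVD. Mccc2 (chromosome 13, 99948530 to 100015639, minus strand) was at 31.4, 36.1 and 39.7 CPM at day 0, 53.7, 82.1 and 111.6 on day 2, then 92.2, 109.8 and 117.2 at day 6. Day 0 was below all other libraries, and days 2 and 6 overlapped. It rose 2.22-fold by day 2 (1.15, SE 0.0900, adjusted p = 1.37e-13) and 2.97-fold by day 6 (1.57, SE 0.0903, adjusted p = 3.99e-17), with 0.42 between days 2 and 6 (adjusted p = 0.000104). In clone 66 alone that last step was 0.13 (adjusted p = 0.177).

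Mccc1 (chromosome 3, 35959312 to 36000678, minus strand) had a wide spread, 8.996, 20.4 and 35.1 CPM at day 0, 18.0, 33.1 and 52.0 on day 2, then 26.7, 100.1 and 164.3 at day 6, and all days overlapped. It rose 4.70-fold by day 6 (2.23, SE 0.297, adjusted p = 4.07e-08). The rise by day 2 (0.73, SE 0.289, adjusted p = 0.0236) did not pass with library size alone (0.47, adjusted p = 0.125) or in either clone alone (adjusted p = 0.137 and 0.12). The spread followed the replicate number: at day 6 Mccc1 was at 26.7 to 41.1 CPM in the 4 libraries numbered replicate 1, 78.9 to 142.6 in replicate 2 and 116.6 to 164.3 in replicate 3. Replicate 1 was the lowest of 3 in all 12 groups of clone, genotype and day for Mccc1 and for Bcat2, as it was for 454 of all genes tested (2.71%), with a median ratio to the mean of the other 2 of 0.376 and 0.492. With the replicate number as a block, Mccc1 rose by 2.13 to day 6 with an SE of 0.137. The sources differ on whether these replicates are technical or independent, and their part in the levels was not tested.

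Of the later steps of the other amino acids, Hibch, 3-hydroxyisobutyryl-CoA hydrolase of the valine arm (chromosome 1, 52844929 to 52920986, plus strand), was at 25.1, 34.9 and 47.5 CPM at day 0, 69.8, 114.3 and 157.1 on day 2, then 115.9, 169.5 and 212.5 at day 6. Day 0 stood below the others, which overlapped. It was 3.24-fold higher at day 2 (1.69, SE 0.0978, adjusted p = 3.88e-17) and 4.75-fold at day 6 (2.25, SE 0.0995, adjusted p = 2.21e-20). Hibch went against Bcat2 and Mccc1 in the replicate numbers, with replicate 3 the lowest in 10 of 12 groups.

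Acadsb, the acyl-CoA dehydrogenase of the isoleucine arm (chromosome 7, 131410601 to 131448944, plus strand), was at 71.6, 80.5 and 101.1 CPM at day 0, 56.3, 93.6 and 127.3 on day 2, then 122.3, 167.0 and 223.2 at day 6. Days 0 and 6 did not overlap, and the day 2 range reached both below and above day 0. It had the smallest rise of the 9 to day 6, 2.07-fold (1.05, SE 0.0826, adjusted p = 1.81e-13), nearly all after day 2 (0.91, SE 0.0824, adjusted p = 1.04e-11). At day 2 the change was 0.14 (SE 0.0822, adjusted p = 0.124) over both clones, with -0.22 in clone 48 alone (adjusted p = 0.025) and 0.51 in clone 66 alone (adjusted p = 8.46e-05). Over both clones it passed in 9 of the 36 fits that left out 1 library (0.18 to 0.21, adjusted p 0.0243 to 0.0492 by edgeR).

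Per length, the order of the 10 genes changed with the day. TPM divides by all annotated exon bases, from 1805 in Bckdhb to 10952 in Mccc1, whether or not the cells used them. Ranks between genes depend on this length. By CPM the lowest mean at day 0 was that of Bckdhb (9.6), not of Mccc1 (20.3). At day 0 Mccc2 (37.9 ± 4.001 TPM, SD, n = 12), Bckdha (36.8 ± 10.1), Acadsb (33.2 ± 3.72) and Dbt (29.5 ± 5.23) led, and Mccc1 was lowest (5.53 ± 2.73). At day 2 Bcat2 (115.2 ± 46.2) and Bckdhb (92.5 ± 11.6) led and Mccc1 was again lowest (7.47 ± 3.18). At day 6 Dbt led (143.4 ± 31.6), before Bcat2 (96.9 ± 39.4) and Bckdha (96.3 ± 16.8), and Bcat1 was last (0.868 ± 0.527). Over the bases that no other gene overlaps, Bckdha came first at day 0 (96.1 ± 26.4) and day 6 (251.1 ± 43.8) and was next to Bcat2 at day 2 (109.2 ± 11.8 and 137.1 ± 54.99), and its lowest library at day 0 (63.4) was above the highest of Mccc2 (44.6). Over all exon bases, neighbours in this order overlapped at every day, save Dbt over Hibch at day 0 and Mccc1 over Bcat1 at day 6. The summed TPM of the 10 genes had a median of 227.6 (171.2 to 242.7) at day 0, 480.4 (404.2 to 610.5) on day 2, then 674.4 (579.4 to 852.6) at day 6, and the last 2 ranges overlapped.

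The clones differed in several of these genes, and in Ivd at every day. Over the 6 libraries of each day, Ivd was at 26.3 to 37.3 CPM in clone 48 and 11.04 to 12.98 in clone 66 at day 0, at 36.6 to 40.5 and 11.6 to 15.3 at day 2, and at 113.6 to 138.6 and 81.2 to 88.2 at day 6. Every clone 66 library was below every clone 48 library of its day. Clone 66 was lower by 2.71-fold at day 0 (log2 -1.44, SE 0.0778, adjusted p = 1.48e-14), 2.88-fold at day 2 (-1.52, SE 0.0780, adjusted p = 2.56e-15) and 1.49-fold at day 6 (-0.58, SE 0.0748, adjusted p = 7.33e-07). The gap narrowed: the change from day 0 to day 6 was larger in clone 66 by 0.86 (SE 0.107, adjusted p = 3.82e-06) and that from day 2 to day 6 by 0.95 (SE 0.107, adjusted p = 5.61e-07). These differences are also differences between the library pools, which cannot be told apart from the clones, and the marker sums given above differ between the clones too; their part in the result was not tested.

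At day 0, 5 of the 10 genes differed between clones, beside 23.7% of all genes (12.6% higher and 11.1% lower in clone 66). Bcat1 (0.71, adjusted p = 0.0424), Bckdha (0.49, adjusted p = 0.015) and Hibch (0.47, adjusted p = 0.0135) were higher in clone 66, and Dbt (-0.28, adjusted p = 0.0379) and Ivd lower. Ivd had separate ranges at day 0 and the other 9 did not, beside 13.7% of all genes, and the day 0 count was 2 to 5 genes when 1 library was left out, with 2 without clone 66 RxraWT replicate 1 of day 0. At day 2 it was 5 genes beside 30.0% (14.5% higher, 15.5% lower): Acadsb (0.82, adjusted p = 5.77e-09), Mccc2 (0.70, adjusted p = 1.14e-07) and Hibch (0.42, adjusted p = 0.0212) higher, and Dbt (-0.27, adjusted p = 0.0399) and Ivd lower. Bcat2 did not pass there (0.76, SE 0.318, adjusted p = 0.0716), but it did with no filter on low counts (0.78, adjusted p = 0.00776). It also passed in 2 of the 36 fits that left out 1 library (0.89 to 0.90, adjusted p 0.0389 to 0.0471 by edgeR). Hibch did not pass at day 2 with library size alone (0.37, adjusted p = 0.0543 by edgeR). Ranges were separate at day 2 for Acadsb, Mccc2 and Ivd, beside 18.6% of all genes. At day 6 it was 6 genes beside 26.2% (13.4% higher, 12.8% lower), and all 6 had separate ranges, beside 15.2%: Bcat1, Acadsb, Bckdha and Dbt higher, Bckdhb (-0.54, adjusted p = 0.00515) and Ivd lower.

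Bcat1 ended higher in clone 66. At day 6 it was at 0.922 to 2.72 CPM in clone 48 and 3.34 to 8.63 in clone 66, 2.88-fold higher (1.53, SE 0.303, adjusted p = 0.000306). Its fall from day 2 to day 6 was smaller in clone 66, by 1.43 (SE 0.396, adjusted p = 0.0251), which did not pass without clone 48 RxraSA replicate 2 or RxraWT replicate 2 of day 6 (1.28 to 1.29, adjusted p 0.0593 to 0.0597). For the whole change from day 0 to day 6 the difference between the clones did not pass (0.82, SE 0.394, adjusted p = 0.349 by edgeR). Mccc2 and Acadsb moved earlier in clone 66. Mccc2 was at 31.4 to 39.3 CPM in clone 48 and 33.6 to 39.7 in clone 66 at day 0, and at 53.7 to 71.8 and 92.3 to 111.6 at day 2. The change by day 2 was larger in clone 66 by 0.76 (SE 0.117, adjusted p = 5.8e-05) and that from day 2 to day 6 smaller (-0.61, SE 0.117, adjusted p = 0.00093), so that at day 6 the clones differed by 0.09 (95% interval -0.08 to 0.26).

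Acadsb was at 56.3 to 79.5 CPM in clone 48 and 107.7 to 127.3 in clone 66 at day 2, and its change by day 2 differed by 0.68 (SE 0.116, adjusted p = 0.000205). Dbt gained more late in clone 66, by 0.67 between days 2 and 6 (SE 0.138, adjusted p = 0.00213) and 0.68 between days 0 and 6 (adjusted p = 0.00277), going from the lower to the higher clone (177.1 to 188.0 CPM in clone 48 and 198.3 to 315.5 in clone 66 at day 6). In all, differences between the clones in a change passed for 2 of the 10 genes from day 0 to 2, 2 from day 0 to 6 and 4 from day 2 to 6, beside 6.84%, 3.85% and 6.18% of all genes. With the replicate number as a block, 2 more passed: Bcat2 from day 0 to 2 (0.62, adjusted p = 0.0251, against 0.51 and 0.633 without the block) and Acadsb from day 0 to 6 (0.39, adjusted p = 0.0179, against 0.0556). The Acadsb difference also passed by DESeq2 (adjusted p = 0.011), with RLE size factors (0.0452), with a filter of 1 CPM in 6 libraries (0.0453) and in 17 of the 36 fits that left out 1 library (0.00896 to 0.0484).

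**Figure D4:**
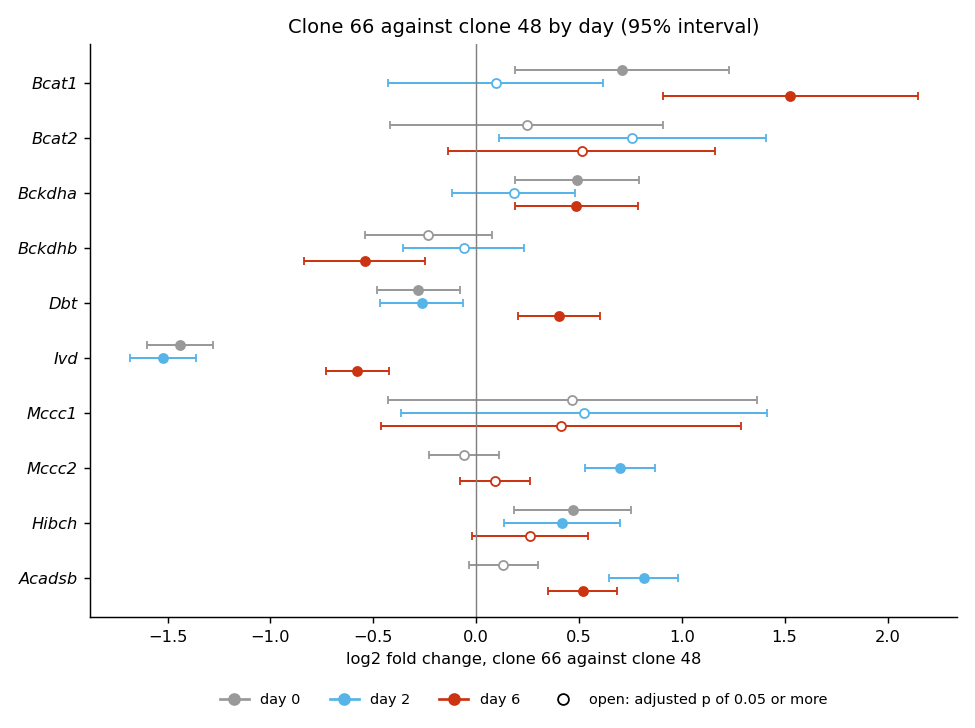
Log2 fold change of clone 66 against clone 48 for each gene at days 0, 2 and 6, with 95% confidence intervals from edgeR. Ivd lies at -1.44, -1.52 and -0.58, and Bcat1 reaches 1.53 at day 6.

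The comparison of the genotypes asks whether serine 22 of RXRα bears on these genes. None of the 10 differed between RxraSA and RxraWT at day 0, 2 or 6 (adjusted p = 1 for each by edgeR), beside 0% of all genes at each day, and the changes over time differed for none by day 2 or by day 6, beside 0% in both interactions. None of the 10 had an unadjusted p under 0.05 in the genotype comparisons without the replicate block, as against 139, 162 and 125 of all 16723 genes at days 0, 2 and 6, and DESeq2 also called none of the 10. The log2 differences ran from -0.28 (Bcat2) to 0.12 (Hibch) at day 0, from -0.12 (Ivd) to 0.13 (Dbt) at day 2 and from -0.53 (Bcat1) to 0.03 (Mccc2) at day 6. A p that misses the threshold does not show that the genotypes were alike. The intervals say how much could be missed in this fit, which leaves out the pairing of same-numbered libraries. The narrowest, of Acadsb, were -0.25 to 0.22, -0.18 to 0.29 and -0.24 to 0.23 at days 0, 2 and 6. The widest, of Mccc1, were -0.995 to 0.67, -0.83 to 0.81 and -0.85 to 0.77. With libraries paired by clone and number, the SE was smaller for all 10 genes at each day. The intervals of Acadsb were then -0.14 to 0.115, -0.06 to 0.20 and -0.12 to 0.13. Those of Mccc1 were -0.52 to 0.14, -0.28 to 0.35 and -0.32 to 0.29.

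For Mccc1 the clones differed in direction within pairs of the same number. RxraSA was higher in 0 of 3 pairs of clone 48 at each of the 3 days, and in 2, 3 and 3 of 3 pairs of clone 66 at days 0, 2 and 6. Such counts of pairs were not made over all genes. The difference between the clones in RxraSA against RxraWT, a test added after the data were seen, was 0.72, 0.38 and 0.53 for Mccc1 with the paired libraries as blocks (unadjusted p = 0.00948, 0.126 and 0.0264 by edgeR), and none passed over all genes (adjusted p = 0.185, 1 and 0.67). Acadsb at day 2 went the other way, with RxraSA higher in 3 of 3 pairs of clone 48 and 0 of 3 of clone 66 (-0.25, unadjusted p = 0.0368, adjusted p = 1 by edgeR). By the same edgeR fit with blocks, Dbt at day 2 (-0.27, unadjusted p = 0.0166) and Hibch at day 0 (-0.33, unadjusted p = 0.0336) were also under 0.05. Such unadjusted p-values were common, with 3083, 648 and 1235 of all 16723 genes under 0.05 at days 0, 2 and 6. None of the 10 genes passed at any day with the blocks, beside 0.0239%, 0.00598% and 0.0179% of all genes at days 0, 2 and 6, or without them, beside 0% at each day.

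The largest difference was Bcat1 at day 6. It was at 1.05, 3.56 and 8.63 CPM as lowest, median and highest of 6 RxraWT libraries and at 0.922, 2.87 and 4.63 in RxraSA, so the ranges overlapped. In clone 48 the 3 replicates were at 2.05, 1.05 and 2.72 CPM in RxraWT and 1.72, 0.922 and 2.40 in RxraSA, and in clone 66 at 8.63, 7.03 and 4.40 and at 4.63, 4.34 and 3.34. RxraSA was lower in 6 of 6 pairs with the same clone and replicate number (log2 -0.53, 95% interval -1.20 to 0.14, unadjusted p = 0.118 by edgeR). How many of all genes went 1 way in all 6 pairs was not counted. A fit that paired the libraries by clone and number gave the same -0.53 with an SE of 0.130 and an unadjusted p of 0.000533 by edgeR, but an adjusted p of 1 over all genes. In that paired fit Ivd at day 2 was also under 0.05 (-0.13, 95% interval -0.26 to -0.001, unadjusted p = 0.0484 by edgeR). It did not pass over all genes.

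**Figure D5:**
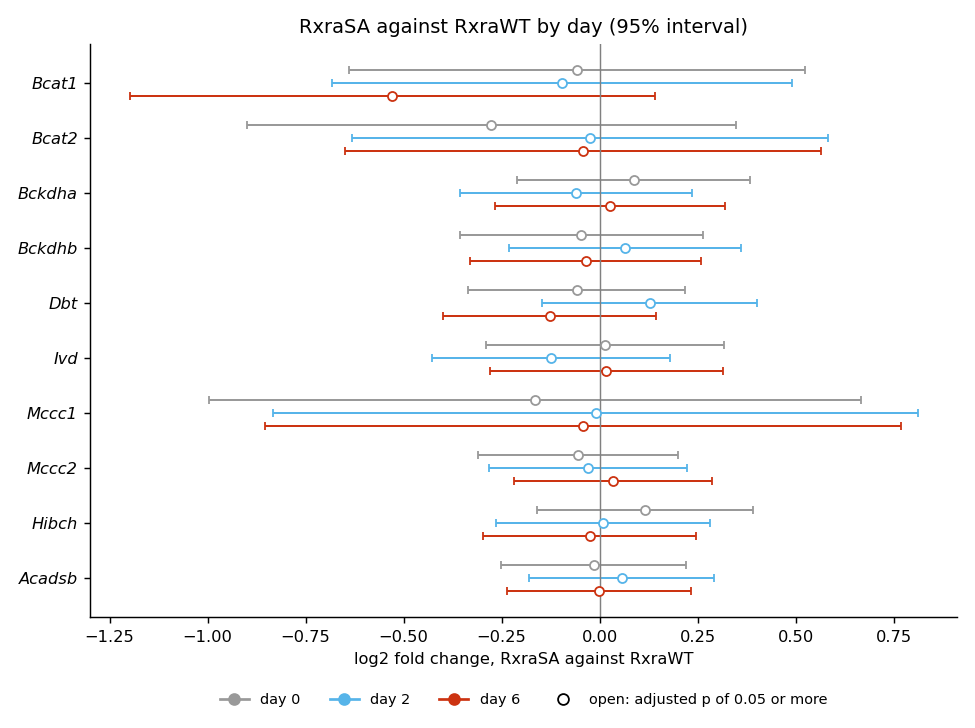
Log2 fold change of RxraSA against RxraWT for each gene at days 0, 2 and 6, with 95% confidence intervals from edgeR. All 30 intervals, from the fit without the replicate block, include 0, and the lowest estimate is Bcat1 at day 6 (-0.53).

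Most of the other genes of the pathway rose too. Of 28 other genes of transport, regulation and later steps, 26 were tested, and 21 were higher and 2 lower at day 2, 24 higher and 1 lower at day 6 (median 1.03), both against day 0, beside 35.8% and 37.5% of all genes higher and lower at day 2 and 32.9% and 35.4% at day 6. From day 2 to day 6 it was 11 higher, 5 lower and 10 not called, beside 31.9% and 30.1% of all genes. Oxct1, an enzyme of ketone body use, was the gene not called at day 6 (-0.05, adjusted p = 0.676) and Mmaa the gene that fell (-0.58, adjusted p = 1.28e-07), both named after their values were seen. Beside BCKDH, Dld, the lipoamide dehydrogenase it shares with other complexes, rose by 1.78 (adjusted p = 2.13e-10). Bckdk, the kinase that inactivates BCKDH, rose by 0.56 to day 6 (SE 0.0581), and Ppm1k, the phosphatase that reactivates it, first fell (-0.33 at day 2, adjusted p = 0.00491) and then rose (1.29 from day 2 to day 6, adjusted p = 9.18e-13).

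In the valine arm Aldh6a1 (2.86), Echs1 (2.37) and Hibadh (1.95) rose with Hibch to day 6, and in the propionate steps Pccb (2.09) and Pcca (1.99), subunits of propionyl-CoA carboxylase. Of the carriers, Slc25a44, the mitochondrial branched-chain amino acid carrier, rose by 0.51 (adjusted p = 3.73e-08), and Slc7a5, of the plasma membrane, by 2.95 to day 2 before it fell by 1.46 to day 6. Klf15, a transcription factor known to drive amino acid breakdown genes, was at 0 to 0.407 CPM (0 to 8 counts) at day 0, 1.31 to 3.75 at day 2 and 85.6 to 133.5 at day 6. Genes of pyruvate dehydrogenase and the citrate cycle rose in 21 of 21 from day 0 to day 6 (median 1.21) and those of mitochondrial fatty acid oxidation in 12 of 15 (median 1.24), beside the 32.9% of all genes that rose. Between days 2 and 6, 5 of the 21 rose and 7 fell (median -0.06), near the 31.9% and 30.1% of all genes, and 2 of the 15 rose and 9 fell (median -0.28).

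Over the 36 libraries, the genes most like Bcat1 by Pearson correlation of log2 CPM, among those whose mean log2 CPM was 5 or more, were Wdhd1 (0.95), Cd44 (0.94) and Klhl22 (0.93), and those most like Bcat2 were Btg1 (0.99), Gprc5b (0.99) and Pgrmc2 (0.98). Among the 10 genes the closest were Mccc2 and Hibch (0.95), Bcat2 and Bckdhb (0.91) and Dbt and Hibch (0.91), and Bcat1 was least like Ivd (-0.87). These correlations describe libraries that share days, clones and replicate numbers.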

How the data were processed

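Total RNA of 36 libraries was sequenced as read pairs (TruSeq Stranded Total RNA, NextSeq 500). Per the file headers, the study's methods and the submitters' processing notes, the authors aligned the reads to GRCm38.p6 with STAR 2.7.0d and counted pairs over exons of GENCODE M21 with featureCounts 1.6.2, without strand and leaving out pairs on several places or genes. The deposited values are these raw counts per gene, 1 file a library, with replicates not pooled. The authors' own edgeR results were not used.

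From the counts, CPM was computed over TMM-scaled library sizes and TPM over summed exon length (python 3.11.15, pandas 2.3.3). Genes were kept by filterByExpr over genotype and day, and all 16723 were tested with edgeR 4.0.16 in R 4.3.3 (quasi-likelihood F test, Benjamini-Hochberg adjustment, threshold 0.05), with a term for clone; comparisons of clones used a group for each clone, genotype and day. SE is the log2 fold change over the root of F. The main model has no replicate block. Same-numbered libraries of RxraWT and RxraSA deviated together in all 18 pairs (correlation 0.178 to 0.922, median 0.809, over 9726 genes), so the replicate number was also used as a block. Other alternatives were size factors, library size alone, other filters, DESeq2 1.42.0, edgeR's version 4 quasi-likelihood test, no clone term, each clone alone and leaving out each library. A test of whether the genotype difference differed between clones, and TPM over the exon bases no other gene overlaps, were added after the data were seen. The scripts were tested on simulated data. In none of the 36 pairs of replicates within a clone, genotype and day did the libraries agree within sampling noise. Other pairs were not compared in this way. Columns of other series: 0.

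The 10 genes, the other lists and the tests were chosen with earlier results of these data known. All 10 genes are named in every comparison; of the other lists, up to 4 genes called between days 0 and 6 with the largest changes, plus Bckdk, Ppm1k, Dld, Slc25a44 and Klf15; likeness was ranked over 36 libraries. Start regions came from RefSeq for GRCm38.p6, with a match for 9 of 10 genes; no window of Dbt was used here.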

Additional observations from a re-analysis of the deposited data

Results flagged for a closer look

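In 60 groups of 6 libraries (10 genes, 2 genotypes, 3 days), 2 had a library apart from the rest by Dixon's criterion for 6 values. For 6 values of 1 normal sample chance gives about 1 in 20. Each group here mixes 2 clones and 3 replicate numbers, so that rate need not hold. Acadsb in RxraWT at day 0 was at 101.1 CPM in clone 66 replicate 2 and at 73.3 to 81.0 in the other libraries (gap over range 0.724). Bcat1 in RxraSA at day 0 was at 95.5 CPM in clone 66 replicate 3 and at 23.0 to 49.9 in the others (0.628). The RxraWT library of the same clone, day and number was at 84.0 CPM. Replicate 3 was the highest for Bcat1 in 9 of 12 groups of clone, genotype and day.

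The clones differed in a change over time in 8 of 30 tests, by an interaction term in edgeR. Of all genes, 6.84%, 3.85% and 6.18% differed in the changes from day 0 to 2, 0 to 6 and 2 to 6. The changes of a gene depend on each other, so the 8 are not separate results. From day 0 to day 2 the change was larger in clone 66 for Acadsb (0.68) and Mccc2 (0.76). From day 0 to day 6 it was larger for Dbt (0.68) and Ivd (0.86). From day 2 to day 6 it was higher for Bcat1 (1.43), Dbt (0.67) and Ivd (0.95) and lower for Mccc2 (-0.61). Clone and library pool cannot be told apart in these values.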

How the results depend on the processing

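Over 47 other settings (36 that left out 1 library and 11 more), 6260 values of the 10 genes were compared with those reported, and 6135 kept their side of the threshold, 259 of them uncalled values that changed sign. 63 lost the threshold, 61 gained it and 1 turned, Acadsb at day 2 in clone 48 alone (-0.22, adjusted p = 0.025, against 0.14). All 10 genes passed from day 0 to day 6, and 0 between genotypes or in the interactions with day, under every setting run. Leaving out 1 library gave 7 to 10 genes called at day 2 (8 reported), 8 from day 2 to day 6 (8), 2 to 5 between clones at day 0 (5), 4 to 5 at day 2 (5), 6 at day 6 (6), and 2, 2 to 3 and 3 to 4 differences between clones in the changes from day 0 to 2, 0 to 6 and 2 to 6. At day 0 the clone count was 3 without clone 48 RxraSA replicate 3 or clone 66 RxraSA replicate 1 and 2 without clone 66 RxraWT replicate 1, all of day 0. The replicate block, run for the changes over time, the genotypes, their interactions and the clone differences in a change, changed no call there other than the 2 given for Bcat2 and Acadsb; clone differences at a day could not be fitted with it, since each block lies within a clone.

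Bcat1 at day 2 lost its call without replicate 3 of any cell line at day 0, any clone 66 library of day 2, clone 48 RxraWT replicates 1 and 2 or RxraSA replicate 1 of day 2, or 4 libraries of day 6 (-0.46 to -0.36), and with no clone term (adjusted p = 0.0536). Bcat1 between clones at day 0 lost it without any of 12 libraries (0.45 to 0.70, adjusted p 0.0502 to 0.238), Bckdha there without the same 3 libraries of day 0 (0.35 to 0.39), Hibch at day 2 without clone 48 RxraWT replicate 3 or clone 66 RxraWT replicate 1 of that day (0.32 to 0.35), without which Bcat2 gained it (0.89 to 0.90), and Dbt between clones without 4 at day 0 and 13 at day 2 and with no filter on low counts (adjusted p = 0.182 and 0.257). Library size alone moved the median of all genes by -0.26 at day 2 and -0.19 at day 6 against day 0, and the median of the 10 to 0.68 and 2.05. With that scaling Hibch between clones at day 2 also lost its call (0.37, adjusted p = 0.0543 by edgeR). The causes were not tested. Depth limits Bcat1 at day 6, with 15 to 153 counts.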
